A study of Homo sapiens with 10 samples.

Results

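The genes of homologous recombination, the Fanconi anemia pathway, the ATR/ATM checkpoint and single-strand break repair were examined in PC-3 spheroids given topotecan by either of 2 schedules. The 46 genes were a fixed list of symbols, all of which were found among the 18144 genes of the deposited table and all of which passed the filter on low values that left 14731 genes (a level worth 10 estimated reads in 2 or more libraries). They comprise 22 recombination genes, 11 Fanconi genes, 9 checkpoint genes and 4 single-strand break repair genes.

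PC-3 is an established human prostate cancer line from a bone metastasis that lacks functional p53, and the labels give it as wild type (WT) and Prostate in every sample. Spheroids were left untreated (CTRL) and sampled on days 0, 3 and 7, given topotecan as a bolus at the start (CON, here CONV-TOPO) and sampled on days 3 and 7, or given it in daily fractions (EE for extended exposure, METRO in the treatment label, here EE-TOPO) and sampled on days 3 and 7. Each of these 7 groups is 1 library of bulk RNA from 1 cell line, so no value below has a replicate, and the study's methods describe a treatment of weeks whereas the labels give days. The day 1 samples, 3 in all, were not used here. Bulk libraries cannot tell fewer cells of a type from less RNA per cell.

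Topotecan traps topoisomerase I on DNA after it has nicked a strand, and a replication fork that runs into the trapped complex breaks. The broken end is resected, coated with RPA and paired with its sister with the help of BRCA1, PALB2 and BRCA2. ATR, called to the single-stranded DNA through ATRIP and activated by TOPBP1, signals through CHEK1 to hold the cell cycle. ATM answers double-strand ends and signals through CHEK2. The Fanconi core complex ubiquitinates FANCD2 and FANCI at stalled forks, and PARP1 with XRCC1 and LIG3 seals single-strand breaks, including those left when the trapped enzyme is removed.

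The levels given here are reads per 1000000 reads (M) of the library (CPM), rescaled by trimmed mean of M-values (TMM) factors, written scaled CPM. A fold is the ratio of 2 such levels, and the range in parentheses after it is an exact binomial 95% interval on the estimated reads, which covers counting error only. A log2 ratio was taken after 1 was added to each scaled CPM, and "1.5-fold" marks a gene whose log2 ratio passed that size, with no test. Depth, estimated from the low values, ran from 15.0 to 22.5 M reads, and a member was supported by 48 to 6862 reads in a library, with a median of 296.5. The epithelial genes KRT8, KRT18 and EPCAM summed to 1196 to 2427 scaled CPM. The sum was highest in the 2 treated libraries of day 7 (2373 and 2427), through KRT8 and KRT18. EPCAM was highest in the untreated library of day 0 (199), with 178 and 170 in those 2 libraries and 179 untreated on day 7. The leukocyte gene PTPRC lay at 0 to 0.448, PECAM1 with VWF at 18.6 to 31.3 and COL1A1 with COL1A2 at 48.9 to 79.3. VWF and COL1A2 added little to these sums, at no more than 0.15 and 0.613. The epithelial genes are shared by many organs, so they bear on the cell type and not on the prostate label.

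Many genes of these pathways are known targets of E2F factors, which switch on S-phase genes, so promoter windows were read from RefSeq (build GRCh38.p14), from 250 bases before to 30 bases after the start. Windows were matched for 41 of the 46 members. The start used was the RefSeq start nearest to that of the canonical transcript, and for 1 member it lay 1061 bases away. The window of CHEK1, at chr11:125625974-125626253 (plus), begins past the listed start of the gene (125625136), and CHEK1 is counted below as a member without a word. At least 1 of 4 short words of the E2F type (TTCCCGC, the form TTGGCGC, the form TTCGCGC or the form TTGCCGC, on either strand) stood in 24 of the 41 windows (58.5%), beside 19.7% of 11360 windows of all genes tested. The stricter form with a further T in front stood in 8 (19.5%) beside 5.17%, and the CCAAT word in 20 (48.8%) beside 36.1%. The words and the window were settled after other lengths had been looked at. The windows of BRCA1 and EXO1 are shown as members that hold a word, that of XRCC3 as the member that was higher in both regimens on day 7, and that of ATM as the member that was lowest then and whose window holds no such word, with the words in capitals. They lie at chr17:43125335-43125614 (minus strand), chr1:241847954-241848233 (plus), chr14:103715422-103715701 (minus) and chr11:108222817-108223096 (plus).
BRCA1: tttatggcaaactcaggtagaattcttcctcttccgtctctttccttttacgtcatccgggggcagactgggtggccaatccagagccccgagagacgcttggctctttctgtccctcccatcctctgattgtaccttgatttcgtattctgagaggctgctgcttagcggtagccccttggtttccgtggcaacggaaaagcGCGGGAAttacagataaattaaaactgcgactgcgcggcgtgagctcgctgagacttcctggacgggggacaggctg
EXO1: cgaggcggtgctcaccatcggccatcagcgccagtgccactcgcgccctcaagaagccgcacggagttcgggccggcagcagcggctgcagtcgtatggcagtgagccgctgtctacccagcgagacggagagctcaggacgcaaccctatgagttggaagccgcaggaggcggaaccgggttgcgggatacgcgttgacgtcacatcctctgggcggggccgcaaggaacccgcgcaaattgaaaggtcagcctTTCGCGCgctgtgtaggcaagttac
XRCC3: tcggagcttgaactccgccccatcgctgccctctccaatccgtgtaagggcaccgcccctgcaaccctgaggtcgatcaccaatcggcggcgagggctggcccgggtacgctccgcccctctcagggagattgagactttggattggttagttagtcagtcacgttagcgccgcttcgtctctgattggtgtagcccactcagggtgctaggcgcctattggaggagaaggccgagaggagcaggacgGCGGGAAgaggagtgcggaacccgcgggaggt
ATM: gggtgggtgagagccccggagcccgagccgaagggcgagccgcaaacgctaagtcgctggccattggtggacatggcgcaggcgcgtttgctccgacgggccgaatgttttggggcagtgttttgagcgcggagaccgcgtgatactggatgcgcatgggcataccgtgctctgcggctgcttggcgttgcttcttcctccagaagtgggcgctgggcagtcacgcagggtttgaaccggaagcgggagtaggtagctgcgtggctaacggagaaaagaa

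All 46 genes were expressed in every library. The median member lay at 14.6 scaled CPM in the untreated library of day 0 and between 12.9 and 19.0 over the 7 libraries. Per kilobase of canonical transcript on day 0, PARP1, which marks DNA breaks with poly(ADP-ribose), was the most abundant at 75 scaled CPM per kilobase. The helicase RECQL4 (24.7), the Fanconi E2 enzyme UBE2T (18.1) and the break sensor NBN (16.5) followed. BRCA2, the tumour suppressor that mediates strand invasion, was the least abundant at 0.722 scaled CPM per kilobase, below RAD51D (0.913) and BLM (0.994).

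The untreated spheroids differed between days before any drug is considered. From day 0 to day 3 the median member had a log2 ratio of 0.32, where the median of all genes was 0.001, and 7 of the 46 lay below 0 (49.9% of all genes did). By 1.5-fold, 7 members were higher on day 3 than on day 0 and none was lower, beside 6.06% and 3.03% of all genes. EXO1, the nuclease of long-range resection, had the highest ratio, with 14.1 scaled CPM on day 0 and 30.1 on day 3, a fold of 2.13 (1.84 to 2.47), and was at 13.5 on day 7. RAD54L, a motor protein of strand exchange, had a fold of 1.89 (1.61 to 2.24) and BRCA2 one of 1.88 (1.56 to 2.28) over the same days. The day 3 comparisons below rest on an untreated library that held the highest of the 3 untreated levels for 32 of the 46 members and the lowest for 4 (WRN, ATM, ATRIP and CHEK2).

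**Figure D1:**
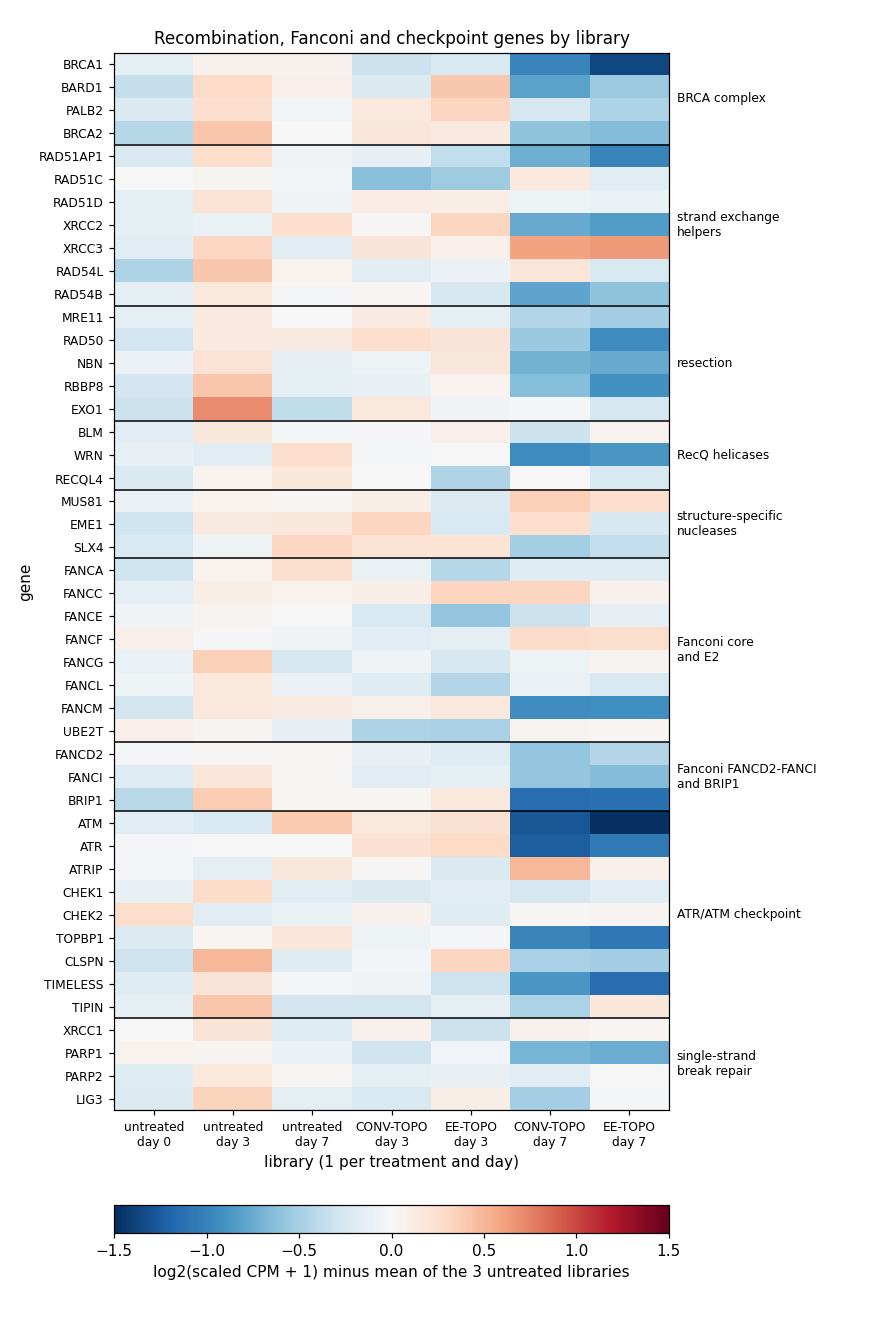
Heat map of the 46 members (rows, grouped by role) in the 7 libraries (columns, 1 per treatment and day). Colour is log2(scaled CPM + 1) minus the mean of the 3 untreated libraries, red higher and blue lower; the untreated library of day 3 is mostly red, and the 2 treated libraries of day 7 hold the deepest blue, at ATM, BRCA1, BRIP1 and ATR.

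On day 3 the members' median lay slightly below the untreated library of that day in both regimens, and few members moved far. After EE-TOPO 5 members were at least 1.5-fold lower (background 4.43% of all genes) and none was higher (7.18%), and after CONV-TOPO 2 were lower (2.86%) and none higher (4.17%). The lower members after EE-TOPO were RAD51AP1, EXO1, FANCE, FANCG and FANCL, those after CONV-TOPO were RAD51C and TIPIN, and none passed in both regimens (1.41% of all genes did). The median log2 ratio was -0.25 after EE-TOPO, with 36 of 46 members below 0 (52.6% of all genes), and -0.18 after CONV-TOPO, with 35 below 0 (51.4%).

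EXO1 was the member furthest below its control after EE-TOPO, at 17.3 against 30.1 scaled CPM, a fold of 0.575 (0.507 to 0.653), with 20.2 after CONV-TOPO. Both treated libraries of day 3 were nonetheless above its levels in the untreated libraries of days 0 and 7 (14.1 and 13.5). RAD51C, which acts in complexes with XRCC3 or XRCC2, behaved differently: its untreated levels were 23.3, 24 and 22.6 scaled CPM on days 0, 3 and 7, and its levels on day 3 were 14.7 and 15.8 after CONV-TOPO and EE-TOPO, below all 3. The fold of RAD51C was 0.612 (0.522 to 0.716) after CONV-TOPO and 0.658 (0.574 to 0.755) after EE-TOPO. Of the core complex, 3 subunits were lower after EE-TOPO, FANCE with a fold of 0.615 (0.509 to 0.742), FANCG with 0.638 (0.536 to 0.758) and FANCL, the ubiquitin ligase, with 0.63 (0.512 to 0.773). With a trend over all genes with length, GC content and span removed, their log2 ratios were -0.575, -0.539 and -0.491, and none passed 1.5-fold. UBE2T, the E2 partner of FANCL, had folds of 0.673 and 0.687 after EE-TOPO and CONV-TOPO, just short of 1.5-fold on the log2 scale used.

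In 7 members both treated libraries of day 3 lay below all 3 untreated libraries (18.4% of all genes did), namely BRCA1, RAD51C, FANCE, FANCF, FANCL, UBE2T and FANCD2. RAD50, FANCC and ATR lay above all 3 (15.6%). With the mean of the untreated libraries of days 0 and 7 as the baseline, an alternative added after the data were seen, the members' medians were -0.03 after EE-TOPO and 0.02 after CONV-TOPO, and 0 and 1 members were 1.5-fold lower. The lower median of day 3 thus depended on the untreated library of day 3.

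The DNA replication genes set beside them as context behaved more uniformly on day 3. All 15 lay below 0 in both regimens, with medians of -0.51 after EE-TOPO and -0.55 after CONV-TOPO, and MCM7, GINS2, CDC45 and RRM2 were 1.5-fold lower in both. These ratios use the same untreated library of day 3. GINS2 and CDC45 lay below every untreated library in both regimens. MCM7 had 152, 208 and 131 scaled CPM untreated on days 0, 3 and 7, with 137 after CONV-TOPO and 128 after EE-TOPO. RRM2 had 170, 307 and 160 untreated, with 189 and 180 after treatment, above days 0 and 7. On day 7, 0 of the 15 were lower in both regimens (17.5% of all genes were), and MCM5 and CDT1 were higher in both (15.4%). Of 15 mitosis genes, a further context list, 0 were lower and 0 higher in both regimens on day 3 (1.41% and 2.26% of all genes). On day 7, 5 mitosis genes were lower in both and 2 higher. Of the members whose promoter window holds an E2F-type word, 21 of 24 were below 0 in each regimen on day 3, with medians of -0.29 and -0.29, and of the 17 without one 11 were below 0 after EE-TOPO and 10 after CONV-TOPO, with medians of -0.11 and -0.08. All genes with such a word had medians of -0.07 and -0.05 and those without had -0.02 and -0.01. On day 7 the order was the reverse. The members with a word then had medians of -0.31 after EE-TOPO and -0.30 after CONV-TOPO, and those without one -0.42 and -0.38. Below 0 on day 7 were 16 of 24 with a word and 12 of 17 without, in each regimen. The day 3 values also use the untreated library of day 3. These are descriptions with no test.

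**Figure D2:**
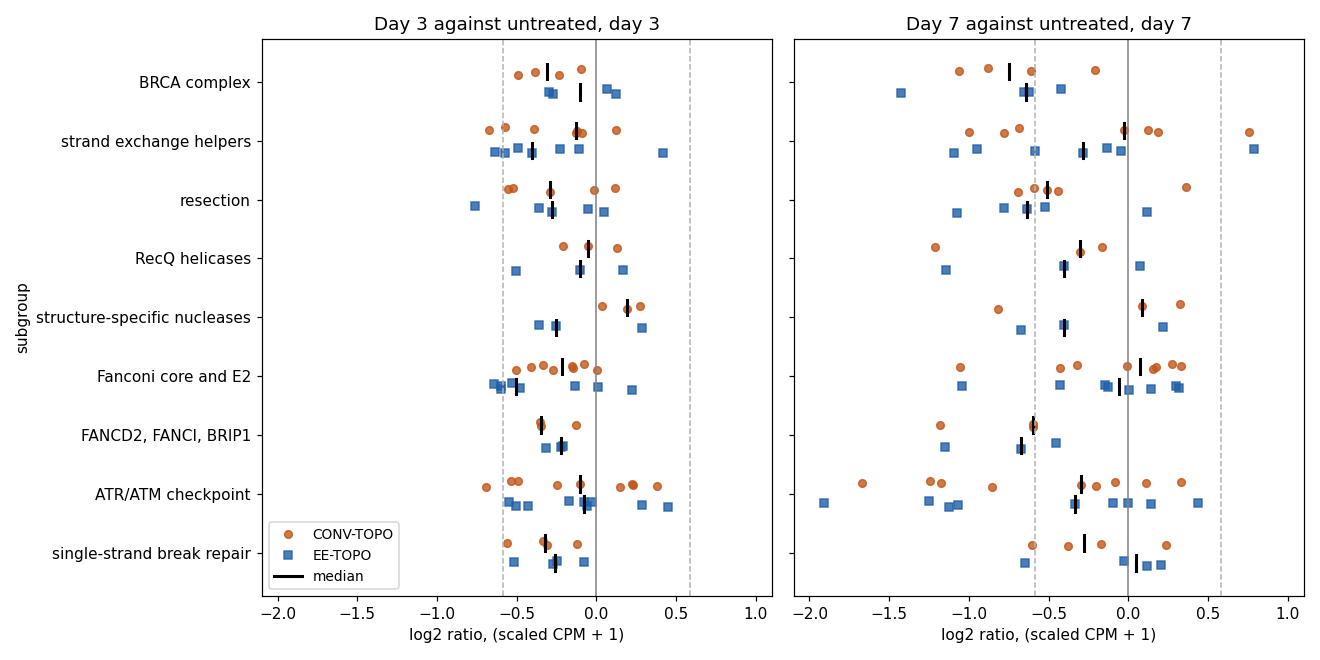
The log2 ratio (horizontal axis, (scaled CPM + 1)) of each member relative to its same-day untreated control, by subgroup, on day 3 (left) and day 7 (right); circles are CONV-TOPO, squares EE-TOPO, black bars subgroup medians and dashed lines 1.5-fold. On day 3 the points stay between -0.76 and 0.45, and on day 7 they spread from -1.91 (ATM) to 0.79 (XRCC3).

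By day 7 a large set of the members was lower in both regimens. After EE-TOPO 18 of 46 were at least 1.5-fold lower and 1 was higher (23.3% and 20.1% of all genes), and after CONV-TOPO 19 were lower and 1 higher (22.5% and 19% of all genes). The same 17 members were lower in both regimens (17.5% of all genes were) and XRCC3 alone was higher in both (15.4%). Both comparisons use the 1 untreated library of day 7. The median log2 ratio of the members was -0.41 after EE-TOPO and -0.35 after CONV-TOPO, where the medians of all genes were -0.04 and -0.05, and 33 members lay below 0 in each regimen (52.4% and 52.8% of all genes). In 25 members both treated libraries of day 7 lay below all 3 untreated libraries (34.1% of all genes did), and in XRCC3, MUS81 and FANCF they lay above all 3 (29.3%). Against the mean of the untreated libraries of days 0 and 3, an alternative added after the data were seen, SLX4 (folds of 0.761 after CONV-TOPO and 0.847 after EE-TOPO) and XRCC3 (1.44 and 1.47) no longer passed 1.5-fold in either regimen. Under the same baseline BARD1 did not pass after EE-TOPO (0.663), nor did RAD50, FANCD2 and FANCI after CONV-TOPO (0.69, 0.665 and 0.661).

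All 4 genes of the BRCA1 branch lay below 0 in both regimens on day 7, and 3 passed 1.5-fold in both. BRCA1, the scaffold that steers ends toward recombination, had untreated levels of 16.2, 18.8 and 18.8 scaled CPM on days 0, 3 and 7, levels of 14.2 and 15.1 after CONV-TOPO and EE-TOPO on day 3, and 8.47 and 6.35 on day 7. The day 7 folds were 0.451 (0.365 to 0.554) after CONV-TOPO and 0.338 (0.265 to 0.429) after EE-TOPO. All 4 treated libraries lay below the 3 untreated ones, those of day 7 far below.

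BARD1, the ring-finger partner of BRCA1, stood at 9.8, 15.8 and 13.6 scaled CPM untreated, 11 and 17.3 on day 3 after CONV-TOPO and EE-TOPO, and 6.95 and 8.5 on day 7. On day 3 the 2 regimens were on opposite sides of the control, and on day 7 both were below all untreated libraries, with folds of 0.51 (0.402 to 0.643) and 0.623 (0.497 to 0.778). BRCA2 had untreated levels of 8.63, 16.3 and 12, then 13.7 and 13.3 on day 3 and 7.51 and 7.24 on day 7. Its day 7 folds of 0.626 (0.495 to 0.788) and 0.604 (0.473 to 0.767) are taken against an untreated library that itself stood 1.39-fold above that of day 0. PALB2, which joins BRCA1 to BRCA2, did not pass 1.5-fold, at 0.849 (0.663 to 1.08) and 0.719 (0.549 to 0.935).

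The helpers of strand exchange split. RAD51AP1, which stabilises the joined strands, had untreated levels of 9.95, 14.4 and 11.3 scaled CPM, 10.7 and 8.89 on day 3 and 6.68 and 5.39 on day 7, with day 7 folds of 0.589 (0.46 to 0.75) after CONV-TOPO and 0.476 (0.36 to 0.622) after EE-TOPO. XRCC2, another helper, had 17.6, 18.2 and 23.5 untreated, 19.9 and 24.7 on day 3 and 11.2 and 10.5 on day 7, with folds of 0.478 (0.398 to 0.573) and 0.447 (0.368 to 0.54) on day 7. Both genes were below every untreated library on day 7, and XRCC2 alone of the pair was above its control on day 3. XRCC3 went the other way, from 23.4, 32.8 and 23.5 untreated and 30.1 and 27.8 on day 3 to 40.3 and 41.2 on day 7, folds of 1.72 (1.52 to 1.94) and 1.76 (1.55 to 1.99).

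XRCC3 lies on chr14:103697617-103715451 (hg38, minus strand) and shares 3935 bases with KLC1 on the opposite strand, whose mean level was 116 CPM against 31.0 for XRCC3. The library kit does not mark strand, so reads of the shared stretch cannot be told apart. Without the TMM rescaling the folds of XRCC3 on day 7 were 1.44 and 1.5 after CONV-TOPO and EE-TOPO. RAD51D, whose whole span lies within the read-through gene RAD51L3-RFFL, had day 7 folds of 0.982 and 0.967, RAD51C 1.14 and 0.908, and RAD54L, which shares 1012 bases with the opposite-strand gene LRRC41, 1.1 and 0.813. RAD54B was 1.5-fold lower after CONV-TOPO, with a fold of 0.565 (0.478 to 0.669), and had 0.654 (0.554 to 0.768) after EE-TOPO.

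Of the MRN complex of resection, RAD50 and NBN were 1.5-fold lower in both regimens on day 7, and MRE11 fell short of that size. RAD50, the tether of the complex, had 14.4, 19.8 and 19.6 scaled CPM untreated, 21.5 and 20.5 on day 3 and 11.8 and 8.79 on day 7, with day 7 folds of 0.6 (0.498 to 0.72) and 0.448 (0.362 to 0.551). NBN, which recruits ATM to ends, had 76.2, 94.5 and 74.5 untreated, 77.1 and 91.3 on day 3 and 49.2 and 47.7 on day 7, with folds of 0.66 (0.603 to 0.722) and 0.64 (0.583 to 0.702). Both lay under all untreated libraries on day 7, while MRE11, the nuclease, had folds of 0.726 and 0.684 without passing 1.5-fold. RBBP8, which starts resection, passed after EE-TOPO with 0.569 (0.491 to 0.657) and had 0.693 (0.607 to 0.791) after CONV-TOPO. EXO1 was not lower, at 1.31 and 1.09.

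Among the enzymes that unwind or cut recombination intermediates, WRN and SLX4 were lower. WRN, a helicase with an exonuclease, had 14, 13.6 and 18.5 scaled CPM untreated, 15 and 15.3 on day 3 and 7.44 and 7.83 on day 7, with day 7 folds of 0.401 (0.321 to 0.499) and 0.423 (0.337 to 0.526). SLX4, the scaffold on which structure-specific nucleases assemble, had 11.3, 12.7 and 16.9 untreated, 15.6 and 15.7 on day 3 and 9.16 and 10.2 on day 7, with folds of 0.542 (0.44 to 0.665) and 0.604 (0.492 to 0.738) on day 7. The nucleases MUS81 and EME1 that bind it did not pass, MUS81 with 1.26 and 1.17 and EME1 with 1.07 and 0.72, nor did the helicases BLM with 0.778 and 1.06 and RECQL4 with 0.89 and 0.756. MUS81 shares 1212 bases with EFEMP2 and EME1 shares 245 bases with LRRC59, each on the opposite strand, and LRRC59 had a mean of 716 CPM against 6.07 for EME1.

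The Fanconi genes are given by role. Of the 8 core and E2 genes 1 was lower in each regimen, FANCM, the DNA translocase that anchors the complex. FANCM had 11.1, 15.3 and 14.9 scaled CPM untreated, 14.5 and 15.4 on day 3 and 6.68 and 6.72 on day 7, with day 7 folds of 0.447 (0.352 to 0.564) and 0.45 (0.352 to 0.571). The subgroup's median log2 ratios were 0.07 after CONV-TOPO and -0.06 after EE-TOPO, and the other 7 members ranged from 0.73 (FANCA) to 1.29 (FANCF) after CONV-TOPO and from 0.728 to 1.27, for the same genes, after EE-TOPO. FANCA shares 3376 bases with ZNF276 and FANCL 678 bases with VRK2 on the opposite strand.

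The substrates of the core complex and BRIP1 lay below 0 in both regimens. FANCD2 had 28.6, 29.6 and 29.8 scaled CPM untreated, 27 and 25.4 on day 3 and 19.3 and 21.4 on day 7, with folds of 0.65 (0.562 to 0.75) after CONV-TOPO, past 1.5-fold, and 0.72 (0.623 to 0.83) after EE-TOPO, short of it. Its partner FANCI had 33.8, 44.1 and 39.5 untreated, 34.3 and 35.2 on day 3 and 25.7 and 24.4 on day 7, with folds of 0.651 (0.575 to 0.738) and 0.617 (0.541 to 0.703). Both genes lay below all untreated libraries on day 7, and FANCI shares 934 bases with POLG on the opposite strand. BRIP1, the BRCA1-bound helicase also known as FANCJ, had 14.8, 26.5 and 20.6 untreated, 20.6 and 22.6 on day 3 and 8.54 and 8.72 on day 7, with folds of 0.415 (0.337 to 0.508) and 0.424 (0.342 to 0.521). Once a trend over all genes with length, GC content and span was taken out, the medians were -0.24 after EE-TOPO and -0.18 after CONV-TOPO for these 3 genes and -0.16 and -0.19 for the 8 core and E2 genes.

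Both checkpoint kinases at the top of the cascade, ATM and ATR, were 1.5-fold lower in each regimen. ATM, which spans chr11:108222832-108369102 (hg38, plus strand), had 47.3, 45.3 and 69.9 scaled CPM untreated, 59.3 and 62.2 on day 3 and 21.3 and 17.9 on day 7. Its day 7 folds were 0.304 (0.268 to 0.345) after CONV-TOPO and 0.256 (0.222 to 0.294) after EE-TOPO, the lowest of the 46 in each regimen. The untreated library of day 7 stood above those of days 0 and 3 for ATM, and against the mean of those 2 the folds were 0.46 and 0.386, no longer the lowest (ATR had 0.393 after CONV-TOPO and BRCA1 0.363 after EE-TOPO). ATM overlaps C11orf65 on the opposite strand over 60584 bases, but C11orf65 had a mean of only 0.251 CPM. ATR had 18.1, 18.3 and 18.3 untreated, 21.6 and 22.6 on day 3 and 7.16 and 8.2 on day 7, with day 7 folds of 0.391 (0.311 to 0.487) and 0.447 (0.359 to 0.555). Both kinases were above their control on day 3 and below every untreated library on day 7.

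The activator of ATR, TOPBP1, and the fork protection protein TIMELESS were lower as well. TOPBP1 had 28.7, 33.9 and 38 scaled CPM untreated, 31.5 and 32.6 on day 3 and 16.3 and 15.4 on day 7, with day 7 folds of 0.429 (0.37 to 0.497) and 0.404 (0.345 to 0.472). TIMELESS had 51.3, 66.8 and 57.5 untreated, 56.2 and 46.9 on day 3 and 31.4 and 25.9 on day 7, with folds of 0.546 (0.489 to 0.609) and 0.449 (0.398 to 0.507). TIPIN, the small partner of TIMELESS, was the least read member, at 4.39, 6.96 and 3.95 untreated, 3.92 and 4.44 on day 3 and 3.3 and 5.69 on day 7, so that the 2 regimens stood on opposite sides of the control, with folds of 0.838 (0.573 to 1.21) and 1.44 (1.04 to 2).

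The effector kinases did not follow. CHEK1 had 27.5, 36 and 26.4 scaled CPM untreated, 25.3 and 26.5 on day 3 and 24.9 and 26.4 on day 7, with folds of 0.943 (0.822 to 1.08) and 1 (0.872 to 1.15) on day 7. Its treated levels of both days lay close to the untreated levels of days 0 and 7, and the untreated library of day 3 was the one that stood apart. CHEK2 had day 7 folds of 1.09 and 1.11, CLSPN, the adaptor between ATR and CHEK1, 0.805 and 0.783, and ATRIP, the ATR partner, 1.28 and 0.934. ATRIP shares its strand and 20867 bases with the read-through gene ATRIP-TREX1.

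In single-strand break repair only PARP1 was 1.5-fold lower. PARP1 had 298, 295 and 269 scaled CPM untreated, 233 and 279.8 on day 3 and 177 and 171 on day 7, with folds of 0.657 (0.627 to 0.689) and 0.637 (0.606 to 0.669), the narrowest intervals of the list. XRCC1, the scaffold of the pathway, had 21.9, 25.3 and 19.4 untreated, 23.2 and 17.4 on day 3 and 23.1 and 22.5 on day 7, with folds of 1.19 (1.03 to 1.38) and 1.16 (0.998 to 1.35). The levels of XRCC1 overlapped those of the untreated libraries on day 7. PARP2 had folds of 0.883 and 0.983 and the ligase LIG3 had 0.752 and 1.09, and LIG3 shares 3754 bases with RFFL on the opposite strand.

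**Figure D3:**
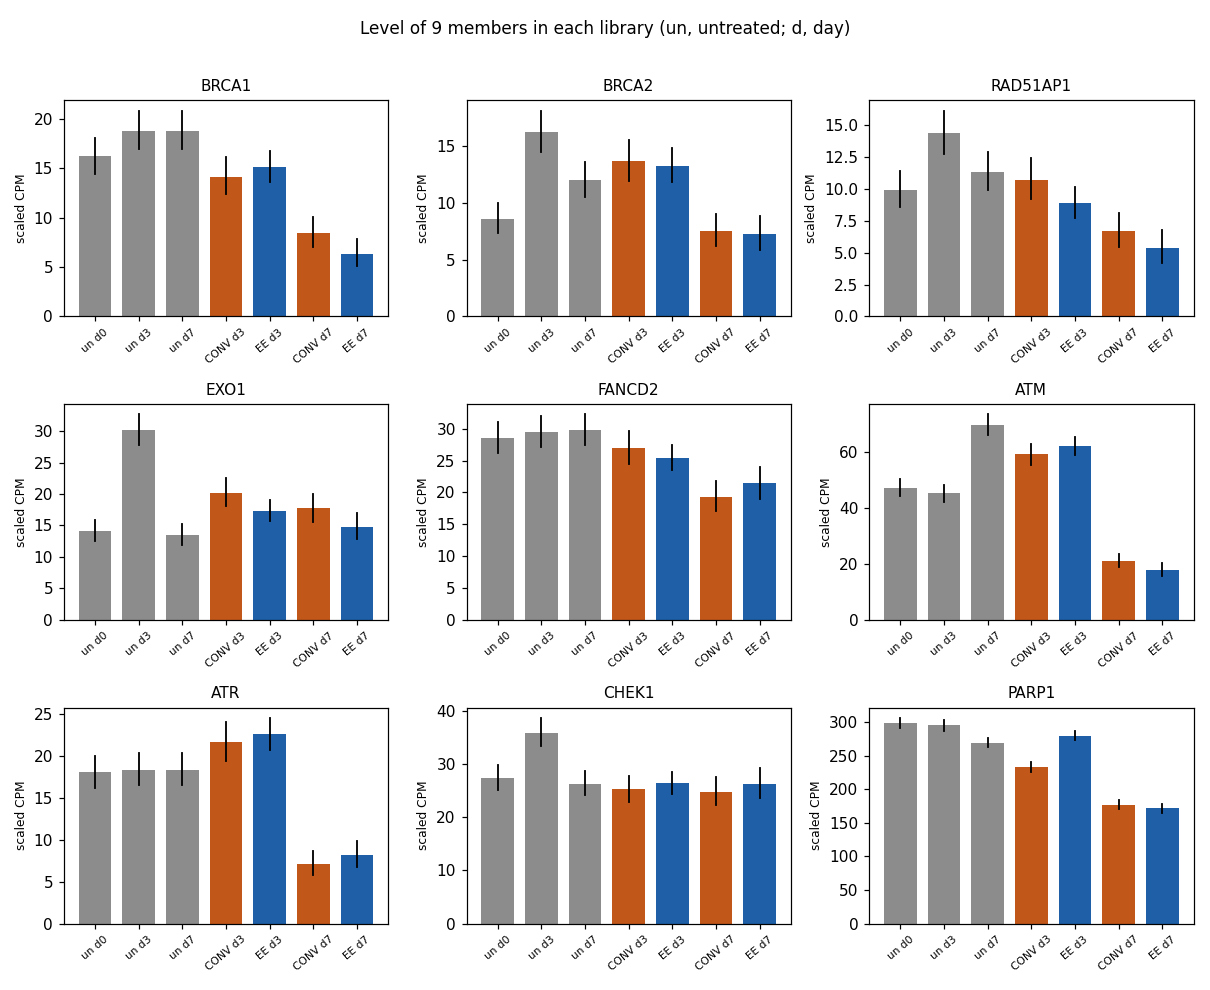
Level of 9 members in each of the 7 libraries (bars from 0, scaled CPM; grey untreated, orange CONV-TOPO, blue EE-TOPO), with the exact Poisson 95% interval of the reads as a line that covers counting error only. ATM stands at 69.9 in the untreated library of day 7 and at 21.3 and 17.9 in the treated ones, whereas CHEK1 lies between 24.9 and 26.4 in the 3 libraries of day 7.

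Set side by side by pathway, 10 of the 22 recombination genes were 1.5-fold lower on day 7 after each regimen, with median log2 ratios of -0.55 after EE-TOPO and -0.48 after CONV-TOPO. Of the 11 Fanconi genes 3 and 4 were lower, with medians of -0.14 and -0.32. Of the 9 checkpoint genes 4 were lower after each regimen, with medians of -0.33 and -0.30, and of the 4 single-strand break repair genes 1 was lower after each, with medians of 0.05 and -0.28. Of all genes 23.3% were lower after EE-TOPO and 22.5% after CONV-TOPO, and the 3 of 11 (27.3%) and 1 of 4 (25%) after EE-TOPO lie near the first. With the trend with length, GC content and span over all genes removed, the recombination median was -0.26 after EE-TOPO and -0.10 after CONV-TOPO. The Fanconi medians were then -0.20 and -0.19, the checkpoint medians -0.19 and -0.35, and the single-strand break repair medians -0.23 and -0.29. Recombination was then lowest by little after EE-TOPO and highest after CONV-TOPO. The pathways were not tested against each other.

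Further genes of the same pathways, outside the 46, were counted as a second list of 36. On day 7, 11 were lower and 4 higher after EE-TOPO, and 7 lower and 5 higher after CONV-TOPO, with medians of -0.01 and -0.18. Of all genes 23.3% were lower and 20.1% higher after EE-TOPO, and 22.5% lower and 19% higher after CONV-TOPO. Lower in both regimens were 7 (19.4%, beside 17.5% of all genes), namely RAD52, GEN1, FAN1, ETAA1, POLQ, TP53BP1 and RIF1, of which RIF1 and TP53BP1 hold back resection (log2 ratios of -1.11 and -0.90 after EE-TOPO). Among those higher in both, RMI2, a subunit of the BLM complex, had log2 ratios of 1.05 after CONV-TOPO and 1.24 after EE-TOPO, the core complex subunit FAAP20 1.39 and 1.21, and the histone H2AX 0.68 and 0.78. On day 3 the single-strand binding subunit RPA3 alone was lower in both, with log2 ratios of -0.61 and -0.69.

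The values of day 7 moved with the length of the transcript, in the members as in all genes. The members' canonical transcripts (GENCODE 44) had a median length of 4584 bases, from 878 in UBE2T to 12915 in ATM, beside 3219 bases for the tested genes, and a median GC content of 42.8% beside 48.7%. Over the 46 members Spearman's rho between length and the log2 ratio of day 7 was -0.59 after EE-TOPO and -0.63 after CONV-TOPO, and over 14172 genes it was -0.52 and -0.56. These are correlations across genes that share the same libraries. On day 3 after EE-TOPO the sign was opposite, with rho of 0.58 over the members and 0.42 over all genes, and after CONV-TOPO it was 0.25 and 0.24.

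Of the 12 members of 7000 bases or more, 9 were 1.5-fold lower on day 7 after each regimen (75%), beside 56.0% and 56.2% of 1702 genes of that length. Of the 13 members under 3000 bases, 1 was lower (RAD51AP1) and 1 higher (XRCC3) in each, beside 9.62% and 8.74% lower and 36.1% and 35.4% higher among 6556 genes. RAD51D, CLSPN and LIG3, at 9966, 8512 and 8382 bases, were the long members that did not pass, and RAD51AP1, at 2112 bases, was the short member that did.

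A smooth trend with gene span, transcript length and GC content over all genes was then removed. On day 7, 8 members were 1.5-fold lower after EE-TOPO and 7 after CONV-TOPO. Of all genes 15.4% and 13.9% were lower, so these counts lay near the background. Higher were 1 and 2 members, beside 12.1% and 9.83% of all genes. The members' medians were -0.21 and -0.18, where those of all genes were -0.01 and -0.004. The trend accounted for 35.0% and 37.8% of the variance of the log2 ratios over genes. RAD51AP1, XRCC2, ATM, TOPBP1 and TIMELESS stayed 1.5-fold lower in both regimens, ATM at -1.0 after EE-TOPO and -0.83 after CONV-TOPO. BRCA1 was at -0.81 after EE-TOPO and -0.46 after CONV-TOPO. BRCA2 at 0.24 and 0.26 and CHEK1 at 0.37 and 0.28 lay above 0 after removal without passing 1.5-fold. XRCC3 came down to 0.28 and 0.27 and no longer passed in either regimen, and the higher members were then BLM after EE-TOPO, at 0.62, and EXO1 and FANCC after CONV-TOPO, at 0.60 and 0.62. On day 3 the medians after removal were -0.36 and -0.21, lower than before. The 3 members 1.5-fold lower on day 3 after EE-TOPO were then EXO1, FANCA and TIMELESS (3.80% of all genes were lower). The part of transcript length or drug in these values cannot be told apart, since each treatment and day is 1 library.

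**Figure D4:**
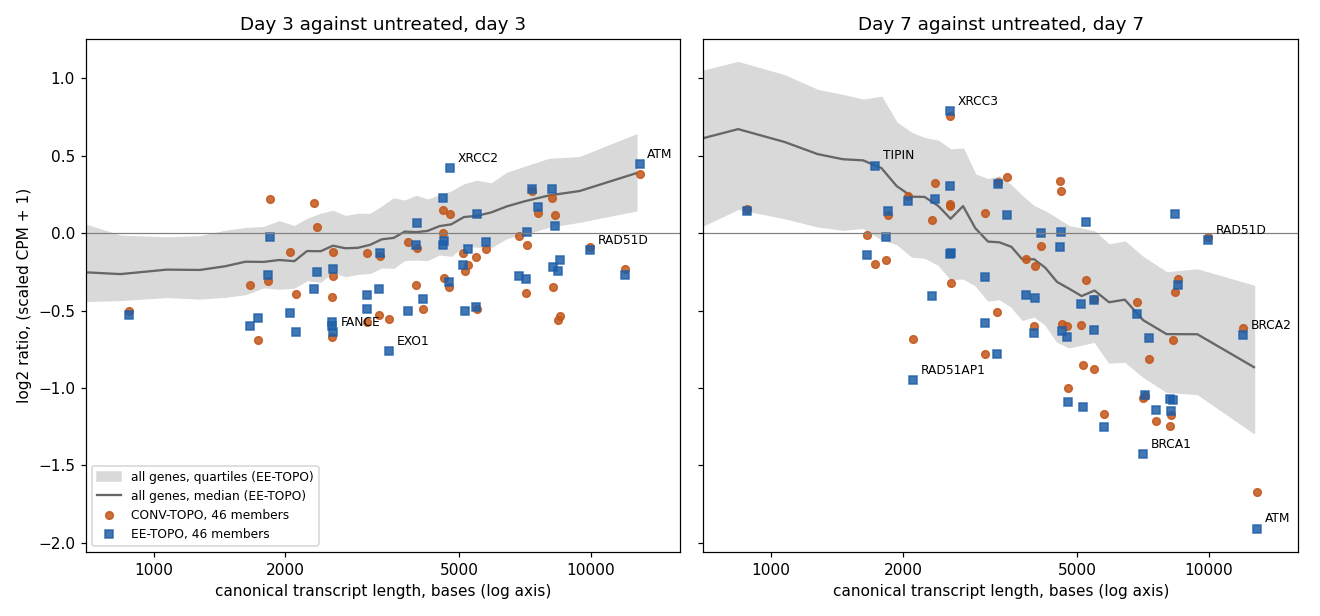
The log2 ratio of each member (vertical axis, (scaled CPM + 1)) against the length of its canonical transcript in bases (log axis) on day 3 (left) and day 7 (right); circles are CONV-TOPO and squares EE-TOPO, and the grey line and band are the median and quartiles of all genes by length after EE-TOPO. The band slopes up with length on day 3 and down on day 7, and the members' values slope the same way, with many members under the band on both days, ATM, BRCA1 and RAD51AP1 among them on day 7.

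The 2 regimens were then compared with each other, which asks whether daily fractions act otherwise than a bolus. On day 3, 1 member was 1.5-fold higher after EE-TOPO than after CONV-TOPO and none was lower (3.18% and 2.27% of all genes), and on day 7 again 1 was higher and none lower (5% and 4.1%). The member of day 3 was BARD1, at 17.3 after EE-TOPO against 11 scaled CPM, a fold of 1.58 (1.32 to 1.89). That of day 7 was TIPIN, at 5.69 against 3.3, a fold of 1.72 (1.19 to 2.52). The medians were 0.03 and -0.04.

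Smaller differences between regimens were seen on both days in the same direction for a few members. The share of all genes that did the same was not counted, so whether the members differ from other genes in this is unknown. EME1 was lower after EE-TOPO, with folds of 0.639 (0.492 to 0.828) on day 3 and 0.672 (0.484 to 0.923) on day 7, as was RECQL4, with 0.73 (0.685 to 0.779) and 0.848 (0.788 to 0.914). TIMELESS had 0.834 (0.764 to 0.911) and 0.824 (0.715 to 0.949), and LIG3 was higher after EE-TOPO, with 1.27 (1.06 to 1.5) and 1.45 (1.17 to 1.82). These intervals hold counting error alone, and the spread between spheroid cultures is unknown. For CHEK1, FANCD2 and FANCI the intervals included 1 on both days, at 1.05 (0.924 to 1.19) and 1.06 (0.914 to 1.23), 0.944 (0.834 to 1.07) and 1.11 (0.937 to 1.31), and 1.02 (0.919 to 1.14) and 0.948 (0.814 to 1.1). These intervals reach 1.31-fold for FANCD2 on day 7 and do not show that the regimens acted alike.

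The test the design allows fits treatment and day over the 6 libraries of days 3 and 7 in limma, with 2 residual degrees of freedom. In limma with Benjamini-Hochberg adjustment no gene of the 14731 reached an adjusted p under 0.05 in any of the 3 comparisons (0% of all genes), and 525, 254 and 129 genes had an unadjusted p under 0.05 for EE-TOPO, CONV-TOPO and EE-TOPO against CONV-TOPO. The members' adjusted p in limma ran from 0.907 to 0.993 for EE-TOPO and from 0.914 to 0.969 for CONV-TOPO, and were 1.00 between regimens. Only for EE-TOPO did members have an unadjusted p under 0.05, namely 3 that were lower (1.25% of all genes), BRCA1, RAD51AP1 and TIMELESS, with fitted log2 changes over both days of -0.86, -0.79 and -0.81. The fitted medians of the members were -0.35, -0.29 and -0.03. A treatment term that is the same on both days cannot describe genes such as ATM and ATR, whose ratios had opposite signs on days 3 and 7. Such differences between days enter the residual of the fit, so its high p-values do not show that treatment had no effect.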

How the data were processed

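RNA from 7 spheroid groups of PC-3 cells, 1 library each, was sequenced by the authors from TruSeq RNA v2 libraries, aligned to hg38 with STAR and deposited as CPM with an offset of 0.0001, made with DESeq2, edgeR and Partek Flow (versions are not given in the sources used here). The kit does not mark strand, and an RNA integrity threshold was applied. The deposited CPM are relative to the total of each library, so a shift in a few abundant genes moves all others. The lowest values were multiples of a per-read step in 88.7% to 89.6% of cases within 0.05 reads, too few to rebuild counts, and the steps gave depths of 15.0 to 22.5 M reads, where a floor of 3 reads is 0.133 to 0.200 CPM.

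The CPM were rescaled with TMM factors (trimming 30% of ratios and 5% of levels), and genes were kept at 0.565 CPM or more (10 reads in a library of middle depth) in at least 2 of the 6 libraries of days 3 and 7. Log2 values were taken with a pseudocount of 1 CPM and fitted in limma 3.58.1 (R 4.3.3) with treatment and day (2 residual degrees of freedom), p-values were adjusted by Benjamini-Hochberg, and the fit was tested on simulated data. Within a day, 1.5-fold was used as a size with no test, and folds carry exact 95% binomial intervals on estimated reads. The p-values of the limma fit are set against how far the treatment differences changed between days 3 and 7, mixed with the spread between libraries. These parts cannot be told apart, because no group was sequenced more than once. The days are not replicates, so a high p-value does not measure replicate noise. Transcript length and GC content came from GENCODE 44 for 14172 genes, and span from the deposited start and stop of each gene. The trend with all 3 was fitted with splines of 5 knots (scikit-learn 1.9.0). No sample of day 1 was analysed.

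The members, subgroups and further lists were chosen with earlier results of these data known. All 46 members were named. Values in every library are given for those at least 1.5-fold one way in both regimens on a day or between regimens, and for BRCA1, BRCA2, FANCD2, FANCI, ATM, ATR, CHEK1, PARP1 and XRCC1. Further pathway genes were named where 1.5-fold one way in both regimens, except 1 that is not reported here. Alternatives changed the scaling, pseudocount, size threshold, low-value filter, baseline library, trend and the libraries in the fit.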

Additional observations from a re-analysis of the deposited data

Results flagged for a closer look

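ATM, ATR and SLX4 were above the untreated library in both regimens on day 3 and below it in both on day 7, with every counting interval excluding 1. This was looked for in the 46 members only. The share of all genes that did the same was not counted, so the switch is not shown to be particular to the members. ATM had folds of 1.37 and 1.31 after EE-TOPO and CONV-TOPO on day 3 and of 0.256 and 0.304 on day 7. ATR had folds of 1.23 and 1.18 on day 3 and of 0.447 and 0.391 on day 7. SLX4 had folds of 1.23 and 1.23 on day 3 and of 0.604 and 0.542 on day 7. The difference between the days was not tested, since each day has its own single untreated library. The canonical transcripts of these genes have 12915, 8158 and 7315 bases, a class whose 1702 genes had medians of 0.28 and 0.13 on day 3 and of -0.68 and -0.67 on day 7. With the trend with span, length and GC content removed, the log2 ratios of day 3 after EE-TOPO and CONV-TOPO were 0.05 and 0.23 for ATM, 0.001 and 0.13 for ATR and 0.10 and 0.14 for SLX4, and those of day 7 were -1.0 and -0.83, -0.32 and -0.53, and -0.52 and -0.63. The untreated level of ATM was lowest on day 3 and highest on day 7.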

How the results depend on the processing

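The counts of members within a day are 12, each given with the share of all genes. Those of day 7 lower than untreated were 18 after EE-TOPO and 19 after CONV-TOPO (23.3% and 22.5%). They were 10 and 8 with a size of 2-fold (10.1% and 8.91%) and 8 and 7 with the trend removed (15.4% and 13.9%). With library totals in place of TMM factors they were 25 and 23 (31.7% and 32.7%). There 0 and 0 were higher (13.7% and 11.5%), the median of all genes then being -0.24 and -0.26. With median-of-ratios factors they were 18 and 14 (22.0% and 21.2%). The 1 higher member in each regimen became 0 and 0 at 2-fold, 2 after CONV-TOPO with the trend removed (XRCC3 then passed in neither regimen, and other members did, BLM after EE-TOPO and EXO1 and FANCC after CONV-TOPO), and 0 after EE-TOPO against the mean of the untreated libraries of days 0 and 3 (the 1 after CONV-TOPO was then ATRIP). Of all genes 8.11% and 6.93% were higher at 2-fold, 9.83% after CONV-TOPO with the trend removed and 15.6% after EE-TOPO against that mean. On day 3 the 5 lower members after EE-TOPO became 1 with library totals (3.15% of all genes), 0 at 2-fold (0.468%) and 3 with the trend removed (3.80%). They became 1 against the mean of all untreated libraries (3.80%) and 0 against the mean of the other untreated libraries (5.02%, chosen after seeing the data). The 2 after CONV-TOPO became 4 with a pseudocount of 0.1 (5.32%) and 0 at 2-fold (0.387%). They became 1 against each of those means (2.22% and 3.19%). Between regimens the 1 higher member became 0 and 0 at 2-fold on days 3 and 7 (0.360% and 0.964% of all genes). It became 0 with the trend removed on day 3 (2.61%), and 1 was lower on day 3 with a pseudocount of 0.1 (4.77%). In limma the 0 calls became 32, 9 and 86 when only the 4 libraries of 2 treatments entered, for EE-TOPO, CONV-TOPO and EE-TOPO against CONV-TOPO, with no member among them. The causes were not tested. The members' median changed sign for CONV-TOPO on day 3 (0.0151 against the other untreated libraries), between regimens on day 3 (-0.0661 with the trend removed) and between regimens in limma when 1 day was left out (from -0.0406 to 0.0257). Day is already a term of the limma fit. No paired analysis was possible beyond it because the labels give no replicate numbers. Leaving out 1 library of a day removes the comparisons it enters. TIPIN had 48 reads in the CONV-TOPO library of day 7, so differences below about 1.5-fold are within counting error in its ratios that use that library.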
